A study of Mus musculus with 2 samples.

Results

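The mitosis genes are 50 genes whose proteins carry a cell through entry into mitosis, spindle assembly, chromosome segregation and cytokinesis. They were listed by gene symbol for their known roles, and all 50 had a named probe among 27051 genes with one. They were read on Agilent two-colour arrays that compared a pool of CX3CR1high CD11b+ CD11c+ cells with a pool of blood monocytes. The colon pool was isolated from the lamina propria in the large intestine of CX3CR1gfp/+ mice, where the coding sequence of green fluorescent protein takes the place of 1 allele of the fractalkine receptor gene Cx3cr1. The blood pool held Ly6c+ CD11b+ monocytes of C57BL/6J mice. The labels name no treatment, and the design text states n = 10 (colon) and n = 6 (blood), with no word on what n counts. Strain label, tissue, isolation and sort differ together between the pools and cannot be told apart. The pools were hybridised together on 2 arrays with the dyes swapped, so the pair of arrays is 1 replicate of each pool, and no test between pools was possible.

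Mitosis begins when cyclin-dependent kinase 1, bound to A- and B-type cyclins, phosphorylates its many substrates. Condensins and topoisomerase II compact and untangle the chromosomes, kinetochores capture spindle microtubules, and the spindle checkpoint holds back the anaphase-promoting complex until every chromosome is attached. Once Cdc20 activates that complex, securin and cyclin B are destroyed, the sister chromatids part and the cell divides. Most of these genes are transcribed late in the cell cycle, so their transcripts are abundant in dividing cells and scarce in resting ones. Circulating monocytes are regarded as largely non-dividing, and macrophages of some tissues can renew by division.

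Values are log2 ratios, colon over blood, given as the mean of both arrays ± SD (n = 2 arrays), an SD that covers technical error alone. A gene counts as measured if 1 pool passed the scanner software's flag for signal well above background on each array. It was called higher if its ratio reached 1, and lower if it reached -1, on every array, which is a 2-fold difference. Normalized intensities include an added offset of 50 units and are compared within a probe only. Where 1 pool was not well above background on either array, the words at least mark a bound on the fold. That bound is taken over the mean of both arrays, so a single array, another probe or another scaling can lie below it. For the 12 mitosis genes given a bound, it equals the observed mean ratio with the offset of 50. Under median centring the ratios of Ccna2, Ccnb1 and Nusap1 lay below it and those of the other genes above it. The labelled sort genes were read first. Itgax, which encodes CD11c, was higher in the colon pool (3.35 ± 0.081) and Ly6c1 was lower (-3.28 ± 0.093), while Itgam, which encodes CD11b (-0.46 ± 0.33), and Cx3cr1 (0.10 ± 0.25) were not called. Ly6c2 had no named probe, so the Ly6c label was read through Ly6c1 alone. Between 52.9% and 59.6% of 43020 spots were well above background per pool and array. In pooled cells, fewer cells that express a gene and less RNA of it per cell cannot be told apart.

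Of the 50 mitosis genes, 18 were called higher in the colon pool and 1 was called lower. Over all 15625 measured genes, 14.2% were called higher and 4.47% lower, and the 18 higher genes are 40.9% of the 44 measured members and 36% of the 50. A further 25 genes were measured without a call. The remaining 6, Cdc25c, Aurkb, Ttk, Cenpf, Kif15 and Ncapg, were not well above background in either pool. The 44 measured genes had a median ratio of 0.75, against 0.06 for all measured genes. Of these 44, 39 were above 0 on both arrays, where the share over all measured genes was 47.7%. In 12 of them the blood pool was not well above background on either array, and in Top2a and Ect2 it was above on 1 array only, so these genes entered through the colon pool and could be called in 1 direction only. Where both pools were well above background, 30 mitosis genes remained, of which 13 were called higher and 1 lower, beside 12.9% and 5.07% of 13245 genes. At a ratio of at least 2 on each array, 7 mitosis genes were higher and 0 lower, beside 6.10% and 0.832% of all measured genes.

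**Figure D1:**
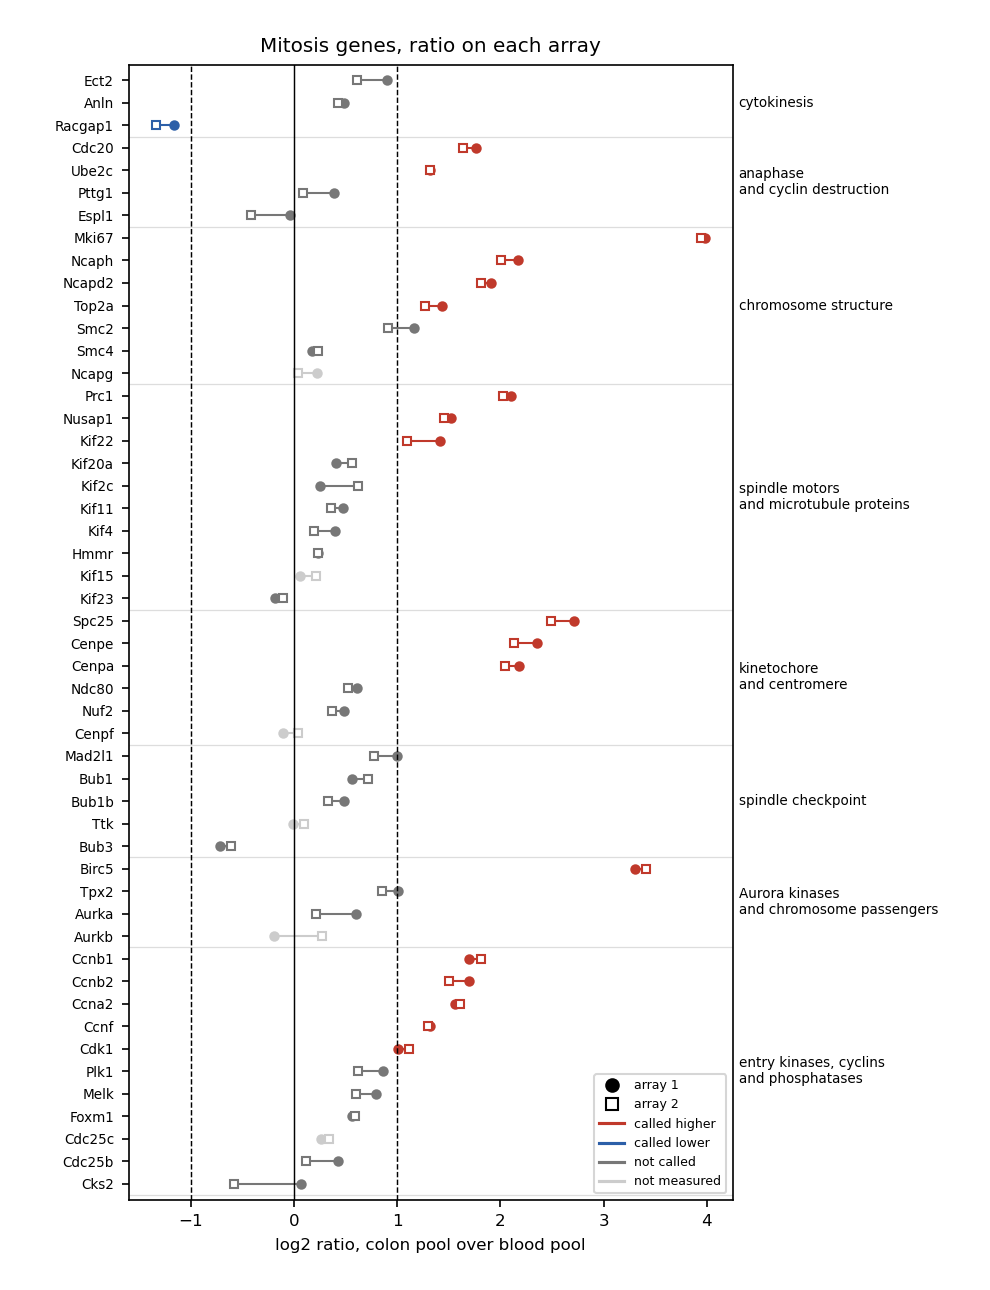
Colon over blood log2 ratio of the 50 mitosis genes, grouped by role, with array 1 as filled circles, array 2 as open squares and dashed lines at ratios of -1 and 1. Genes called higher lie to the right of the dashed line at 1 on both arrays, with Mki67 (3.96) and Birc5 (3.36) farthest right, and Racgap1 (-1.25) is the gene called lower.

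The promoters show what these genes share beyond the rule that chose them. Late cell cycle promoters are known for CCAAT boxes, bound by the factor NF-Y, placed upstream of a cell cycle genes homology region (CHR), a short element bound by the DREAM and MuvB complexes. RefSeq promoters on GRCm38.p6, from 250 bases before to 50 bases after each start, were matched for 43 of the 50 genes (46 promoters). Prc1, Bub3 and Ect2 each had 2 overlapping promoters, and both were counted. Ccna2, Cdc25c, Foxm1, Aurkb, Tpx2, Kif20a and Smc4 had no matched promoter. The letters CCAAT and those of the CHR, TTTGAA, were searched on both strands, and matches of the pair can share at most 1 base. CCAAT was found in 76.1% of the mitosis promoters and in 37.4% of all 32851 promoters of the table. TTTGAA was found in 73.9% of the mitosis promoters and in 17.9% of all promoters, and both together in 65.2% and 6.95%. At least 2 CCAAT matches lay in 50% of the mitosis promoters and in 11.7% of all. The CHR variant TTTAAA, which reads the same on both strands, lay in 19.6% and 13.2%. A match is a run of letters and does not show that a factor binds there.

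The following stretches are read 5′ to 3′ on the gene's strand and come from promoters that hold both CCAAT and TTTGAA. They show the matches for some genes that were called higher, for Racgap1, which was called lower, and for Bub3, below 0 without a call. The order and spacing of matches were not scored, and in several promoters, such as those of Cdc20 and Bub3, CCAAT also lies downstream of TTTGAA. Capitals mark every match to CCAAT and to TTTGAA within the stretch. A match that lies on the opposite strand appears in capitals as its reverse complement.
Mki67, chr7:135716460-135716579, minus strand: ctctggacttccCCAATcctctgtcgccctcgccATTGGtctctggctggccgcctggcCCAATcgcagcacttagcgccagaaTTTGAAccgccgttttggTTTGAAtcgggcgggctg
Ccnb2, chr9:70421533-70421733, minus strand: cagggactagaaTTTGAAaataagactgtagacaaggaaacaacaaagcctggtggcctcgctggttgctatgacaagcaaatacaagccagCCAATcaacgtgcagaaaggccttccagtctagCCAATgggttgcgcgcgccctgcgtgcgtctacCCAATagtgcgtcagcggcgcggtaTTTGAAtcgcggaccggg
Cdk1, chr10:69352910-69353132, minus strand: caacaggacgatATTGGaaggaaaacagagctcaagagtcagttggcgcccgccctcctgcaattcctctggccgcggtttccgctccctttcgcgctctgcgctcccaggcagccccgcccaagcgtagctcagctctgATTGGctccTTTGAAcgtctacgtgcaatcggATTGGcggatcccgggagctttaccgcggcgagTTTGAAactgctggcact
Cdc20, chr4:118437335-118437408, minus strand: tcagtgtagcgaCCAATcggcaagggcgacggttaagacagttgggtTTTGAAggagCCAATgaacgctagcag
Prc1, chr7:80294402-80294463, plus strand: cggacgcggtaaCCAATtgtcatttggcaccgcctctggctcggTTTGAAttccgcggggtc
Spc25, chr2:69206184-69206280, minus strand: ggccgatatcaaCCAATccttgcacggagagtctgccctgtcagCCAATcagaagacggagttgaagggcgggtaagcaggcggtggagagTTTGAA
Top2a, chr11:99024195-99024428, minus strand: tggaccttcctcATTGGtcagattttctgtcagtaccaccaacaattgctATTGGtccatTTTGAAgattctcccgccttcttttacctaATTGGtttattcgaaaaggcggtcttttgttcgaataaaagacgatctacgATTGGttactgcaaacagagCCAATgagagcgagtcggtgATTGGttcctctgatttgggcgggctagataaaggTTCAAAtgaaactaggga
Racgap1, chr15:99651634-99651680, minus strand: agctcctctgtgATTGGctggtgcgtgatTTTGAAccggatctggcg
Bub3, chr7:131560284-131560354, plus strand: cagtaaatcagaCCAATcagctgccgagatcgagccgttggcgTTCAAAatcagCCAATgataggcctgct
The 18 promoters of genes called higher belong to 17 genes, since both promoters of Prc1 are counted and Ccna2 had none. The other 28 belong to 26 genes, with both promoters of Bub3 and of Ect2. CCAAT lay in 83.3% of the 18 promoters of genes called higher and in 71.4% of the other 28. At least 2 CCAAT matches lay in 66.7% and 39.3%, and TTTGAA in 72.2% and 75.0%. These differences were not tested. Racgap1 and Bub3 held both, so the pair of matches was found on both sides of a ratio of 0. The promoters of Mad2l1, Melk, Ncaph, Nuf2, Nusap1 and Pttg1 held none of the 3 runs of letters, and of these Ncaph and Nusap1 were called higher. The promoter of Birc5, also called higher, held TTTAAA but neither CCAAT nor TTTGAA. In 45 promoters of DNA replication and G1/S genes, CCAAT was found in 60% and TTTGAA in 17.8%.

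**Figure D2:**
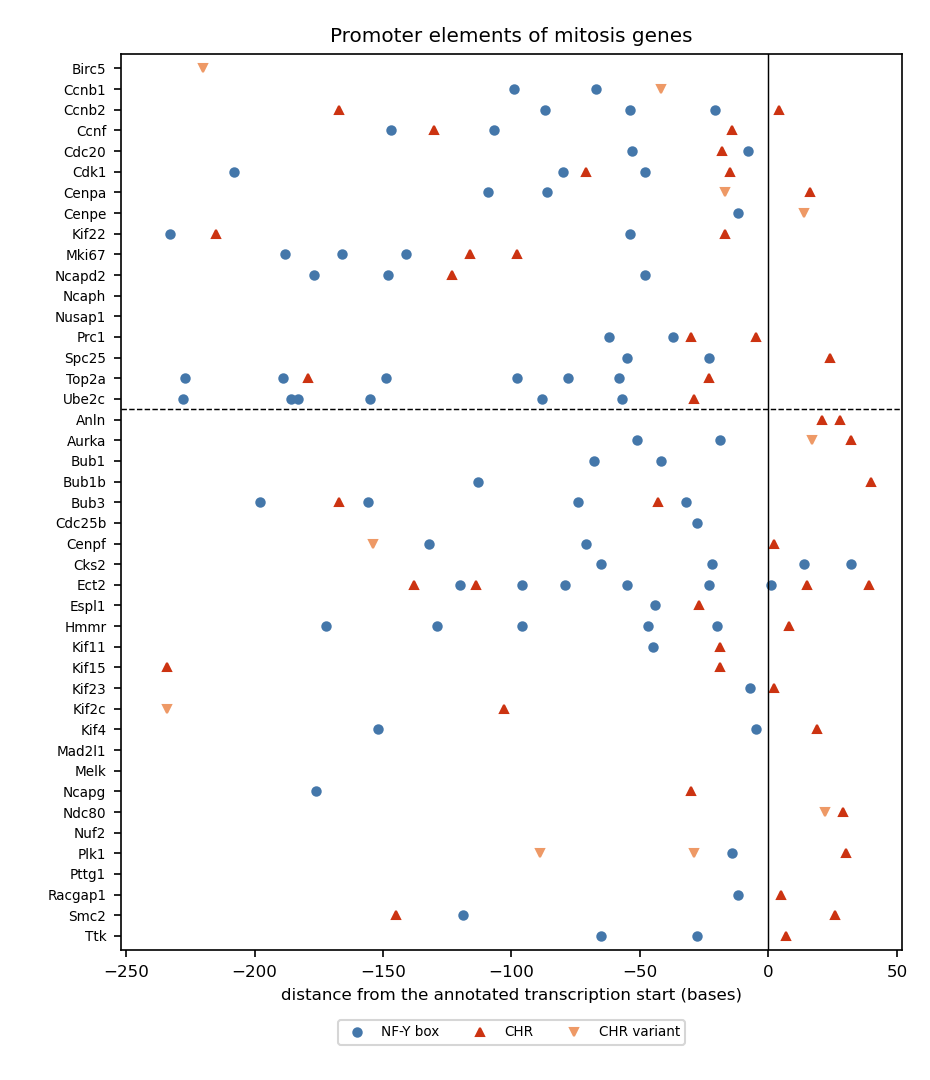
Positions of CCAAT matches (NF-Y box, circles), TTTGAA (CHR, upward triangles) and TTTAAA (CHR variant, downward triangles) in the promoters of 43 mitosis genes, in bases from the annotated transcription start, with genes called higher above the dashed line. CCAAT matches lie mostly upstream of the start, and genes above and below the line both hold the pair: 72.2% and 60.7% of their promoters have CCAAT together with TTTGAA.

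The counts by role given here and below stand beside 14.2% of all measured genes called higher and 4.47% called lower. Each role holds few genes, and differences between roles were not tested. Among the 11 genes of mitotic entry, 5 were called higher, 5 were measured without a call and Cdc25c, a phosphatase that activates Cdk1, was not measured. The cyclins Ccna2, Ccnb1, Ccnb2 and Ccnf were all called higher. Ccnb1, cyclin B1 (probe at chr13:101548722-101548781 on build mm9), gave normalized intensities of 247 and 202 in the colon pool on arrays 1 and 2. In the blood pool it gave 76.2 and 57.5, not well above background, so the colon pool was at least 3.37-fold higher (1.75 ± 0.083). Ccna2, cyclin A2 (chr3:36463978-36464037), read 234 and 192 in the colon pool, and the blood pool, at 79.5 and 62.8, was again not well above background, at least 3.00-fold higher (1.59 ± 0.037). For both cyclins the colon pool was the brighter on both arrays. Ccnb2, cyclin B2 (chr9:70255671-70255730), was well above background in both pools, with 698 and 621 in the colon pool and 215 and 219 in the blood pool, and a ratio of 1.60 ± 0.14. Ccnf, the F-box protein of a ubiquitin ligase that does not act through a kinase partner (chr17:24360204-24360263), read 267 and 256 in the colon pool and 107.4 and 104 in the blood pool, a ratio of 1.30 ± 0.012. Both arrays gave nearly the same ratio for it.

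Cdk1, the kinase that A- and B-type cyclins activate, was called higher. Its brightest probe (chr10:68801072-68801131) gave 171 and 134 in the colon pool, and the blood pool, at 85.1 and 61.9, was not well above background, at least 2.08-fold higher (1.06 ± 0.074). The array carries 3 Cdk1 probes, and the call rests on that probe alone. The first 30 bases of each are given because probe 1 and probe 2 overlap by 41 of their 60 bases, with starts 19 bases apart, and capitals mark the shared stretch.
Cdk1 probe 1, chr10:68801072-68801131, minus strand: ttcttaatttcctacgtatAACTTAATTAA
Cdk1 probe 2, chr10:68801053-68801112, minus strand: AACTTAATTAACATGTAAATATTATTCCAT
Cdk1 probe 3, chr10:68799513-68799572, minus strand: atacactaaaaatttgggtagccaggaggt
Probe 2 had a ratio of -0.07 and probe 3 of -0.13, and neither passed the flag for signal in 1 pool on each array. The overlapping pair therefore gave a called and an unmeasured result for nearly the same stretch of transcript, and the cause was not tested. Ccnb1 also rests on 1 of its 3 probes, since the others gave 0.23 and 0.14. With the scanner software's own ratios the 3 Ccnb1 probes gave 4.13, 2.53 and 1.49, all above 0, while the Cdk1 probes gave 3.30, -0.03 and -0.30.

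The other entry genes lay between -0.26 and 0.74. Plk1, the polo-like kinase that promotes entry and spindle maturation, read 235 and 209 in the colon pool and 129 and 136 in the blood pool, and its ratios on arrays 1 and 2 were 0.86 and 0.61. Melk, a kinase of the late cell cycle, reached 0.80 and 0.60, at least 1.62-fold higher, with a blood pool not well above background. Foxm1, a transcription factor of late cell cycle genes, had 0.56 and 0.59. These genes were above 0 on both arrays but below the size of a call, though the software's ratios called Melk higher (3.55). Cdc25b, a phosphatase that activates Cdk1, had a mean of 0.27 ± 0.22, which fell below 0 under median centring and under the software's own ratios. Cks2, a small subunit that binds the kinase, had ratios of 0.07 and -0.58, so the arrays differed in sign and gave it no direction.

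**Figure D3:**
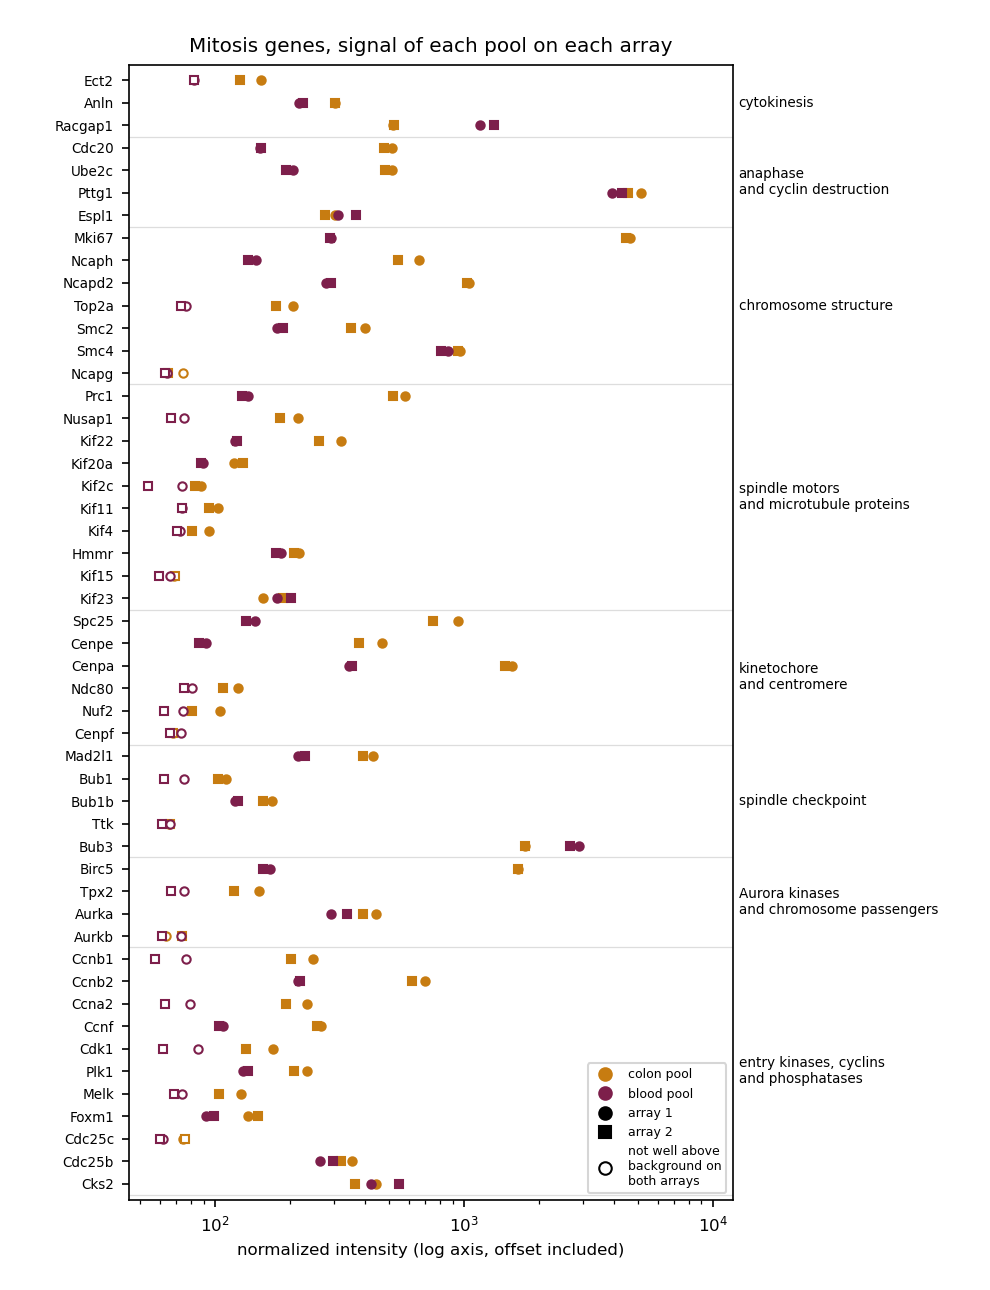
Normalized intensity of each mitosis gene in the colon pool and the blood pool on arrays 1 and 2, on a log axis with the offset of 50 included and open symbols where a pool was not well above background on both arrays. The pools of Mki67 lie farthest apart (4636 and 4465 against 293 and 289.9), and open symbols sit mostly in the blood pool. Intensities can be compared within a row only.

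Among the Aurora kinases and chromosome passengers, Birc5 was called higher, Tpx2 and Aurka were measured without a call, and Aurkb, the kinase of the chromosomal passenger complex, was not measured. Birc5, which encodes survivin, a subunit of that complex (chr11:117716978-117717037), read 1646 and 1654 in the colon pool and 166 and 155 in the blood pool, a ratio of 3.36 ± 0.073 or 10.3-fold. The colon pool lay far above the blood pool on both arrays. Its other probes gave 1.29, also called, and 0.85, so the size differs between probes while the direction does not. Under the software's ratios the 3 Birc5 probes lay closer together, at 3.68, 3.37 and 2.91. Tpx2, which activates Aurora A on the spindle, had 1.010 and 0.85, just short of a call on array 2, and was at least 1.91-fold higher. The software's ratios called it higher (3.56). Its other probe was not well above background in either pool. Aurka, Aurora kinase A itself, had 0.60 and 0.21, and its mean of 0.41 became -0.06 under median centring.

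None of the 5 spindle checkpoint genes, of which 4 were measured, was called with normexp and loess, beside 14.2% of all measured genes called higher. The software's ratios called Bub1 higher (3.27). Mad2l1, which encodes Mad2, the protein that sequesters Cdc20, read 429.8 and 393 in the colon pool and 215 and 229.9 in the blood pool and ratios of 0.999 and 0.77. Its array 1 ratio lay just below the size of a call. Its other probes gave -0.02 and -0.00094, so the brightest probe alone carries that difference. Bub1, a checkpoint kinase at the kinetochore, was read by 10 spots of 1 probe and had 0.56 and 0.72, at least 1.56-fold higher, with a blood pool not well above background. Bub1b, which encodes BubR1, had 0.49 and 0.33. Ttk, the kinase Mps1 that starts checkpoint signalling, was not measured. Bub3, the partner that docks Bub1 and BubR1, ran the other way with 1762 and 1753 in the colon pool and 2891 and 2677 in the blood pool. The blood pool was the brighter on both arrays, with a ratio of -0.66 ± 0.073, short of the size of a call.

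Of the 6 kinetochore and centromere genes, 3 were called higher and Cenpf was not measured. Spc25, a subunit of the Ndc80 complex that grips microtubules (chr2:69031953-69032012), read 947 and 751 in the colon pool and 144 and 133 in the blood pool, a ratio of 2.60 ± 0.16 or 6.08-fold. Cenpe, a kinesin that carries chromosomes to the spindle equator (chr3:134936387-134936446), read 469.6 and 379 in the colon pool and 92.1 and 86.3 in the blood pool, a ratio of 2.24 ± 0.15. Cenpa, the histone H3 variant that marks the centromere (chr5:30974916-30975386), read 1566 and 1467 in the colon pool and 346 and 355 in the blood pool, a ratio of 2.11 ± 0.093. In these 3 genes both pools were well above background, and the colon pool was the brighter on both arrays. Ndc80 and Nuf2, partners of Spc25 in the same complex, had ratios of 0.61 and 0.53 and of 0.49 and 0.37. Their blood pools were not well above background, which makes these at least 1.48-fold and 1.35-fold higher, and the software's ratios called both higher (1.63 and 2.55). A second Nuf2 probe, not well above background in either pool, gave 0.07.

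Among 10 spindle motors and microtubule proteins, 3 were called higher, 6 were measured without a call and Kif15 was not measured. Prc1, which bundles antiparallel microtubules at the spindle midzone (chr7:87461048-87461107), read 580.1 and 519.8 in the colon pool and 135 and 128 in the blood pool, a ratio of 2.06 ± 0.055. Nusap1, a microtubule binding protein of the spindle (chr2:119475072-119475131), read 216 and 182 in the colon pool, and the blood pool, at 75.3 and 66.4, was not well above background, at least 2.8-fold higher (1.49 ± 0.044). Kif22, a chromokinesin that pushes chromosome arms (chr7:134171255-134171314), read 320.0 and 262 in the colon pool and 120.1 and 122 in the blood pool, a ratio of 1.25 ± 0.22. Its ratios of 1.41 and 1.096 were the widest apart of the called genes. The motors without a call were Kif20a at 0.48, Kif2c at 0.44, Kif11 at 0.41, Kif4 at 0.30 and Kif23 at -0.15. Kif2c, a microtubule depolymerase, Kif11, the motor that separates the spindle poles, and Kif4, a chromokinesin, had a blood signal not well above background. On the mean of both arrays they were at least 1.35-fold, 1.33-fold and 1.23-fold higher. Their ratios on arrays 1 and 2 were 0.25 and 0.62 (Kif2c), 0.47 and 0.36 (Kif11) and 0.40 and 0.19 (Kif4). A second Kif2c probe, which was not measured, gave 0.16. The software's ratios called all 3 genes and Kif20a (1.13) higher. Hmmr, a spindle protein also known as Rhamm, was 0.24 and became -0.04 under median centring.

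Of the 7 chromosome structure genes, 4 were called higher. Mki67, which encodes Ki-67, a coat protein of mitotic chromosomes and the usual marker of dividing cells, had the highest ratio of the 50 genes with the offset of 50, while the software's ratios placed Ccna2 (4.45) and Ccnb1 (4.13) above it (4.07). It read 4636 and 4465 in the colon pool and 293 and 289.9 in the blood pool, a ratio of 3.96 ± 0.028 or 15.6-fold. The array carries 2 separate Mki67 probes, whose first 30 bases are given because they share no stretch and gave nearly the same ratio.
Mki67 probe 1, chr7:142881591-142881650, minus strand: atactactgctactgcctgagtttaaggaa
Mki67 probe 2, chr7:142884764-142884823, minus strand: cagtgaacctaagccaagggtaactcgtgg
Probe 2 had a ratio of 4.02, against 3.96 for probe 1. Ncaph and Ncapd2, subunits of condensin I, were called higher. Ncaph (chr2:126929625-126929684) read 657 and 542 in the colon pool and 146 and 135 in the blood pool, a ratio of 2.09 ± 0.12. Ncapd2 (chr6:125118012-125118066) read 1051 and 1029 in the colon pool and 279 and 293 in the blood pool, a ratio of 1.86 ± 0.071. Ncapg, the third subunit of this kind, was not measured. Smc2 and Smc4 form the core that condensin I shares with condensin II. Smc2 had 1.17 and 0.91 and missed the call on array 2, and Smc4 read 967 and 946 in the colon pool and 859 and 807 in the blood pool, a ratio of 0.20 ± 0.041 that became -0.42 under median centring. The condensin genes therefore ranged from near 0 to above 2 on the log2 scale, and no difference between them was tested. Top2a, topoisomerase II alpha (chr11:98855522-98855581), read 206 and 176 in the colon pool and 76.2 and 73.0 in the blood pool, a ratio of 1.35 ± 0.12, with the blood pool well above background on 1 array.

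Of 4 genes of anaphase and cyclin destruction, Cdc20 and Ube2c were called higher. Cdc20, the activator of the anaphase-promoting complex (chr4:118105534-118105593), read 514 and 477 in the colon pool and 152 and 153 in the blood pool, a ratio of 1.70 ± 0.088. Ube2c, its ubiquitin-conjugating enzyme (chr2:164598016-164598075), read 514 and 482 in the colon pool and 206 and 193 in the blood pool, a ratio of 1.32 ± 0.0014, while its other probe gave 0.78 and was not called. Both genes were higher in the colon pool on each array. Pttg1, which encodes securin, read 5146 and 4579 in the colon pool and 3945 and 4322 in the blood pool, with ratios of 0.38 and 0.08 and a mean that fell below 0 under median centring (-0.50). Its second probe gave 0.65. Espl1, which encodes separase, the protease that cleaves cohesin, had -0.04 and -0.42. Neither securin nor separase was called.

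Cytokinesis held the gene called lower. Racgap1, the GTPase-activating protein of the centralspindlin complex (chr15:99451768-99451827), read 518 and 524 in the colon pool and 1164 and 1323 in the blood pool. The blood pool was the brighter on both arrays, with a ratio of -1.25 ± 0.12, which is 2.38-fold higher in blood. A second Racgap1 probe gave -1.17 and was also called. The first 30 bases of each are given because their sites share 10 bases, marked in capitals where they fall in the printed stretch of probe 2, with starts 50 bases apart.
Racgap1 probe 1, chr15:99451768-99451827, minus strand: tcaagtaaagctgtgtctgcctgtgtttac
Racgap1 probe 2, chr15:99451718-99451777, minus strand: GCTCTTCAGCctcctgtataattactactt
Over all settings tried, the Racgap1 ratio stayed between -1.87 and -1.17, but under median centring it was not called on each array. Kif23, the kinesin that pairs with Racgap1 in centralspindlin, read 156 and 188 in the colon pool and 177 and 203 in the blood pool, a ratio of -0.15 ± 0.052. Ect2, which Racgap1 recruits to switch on RhoA at the division site, had 0.90 and 0.61, and Anln, the scaffold anillin, had 0.48 and 0.42. Neither was called with normexp and loess, and the software's ratios called Ect2 higher (1.57).

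The count of mitosis genes called depended on the scaling. The software's own background subtraction and dye normalization called 28 of the 44 measured members higher and 1 lower, beside 20.3% and 13.3% of measured genes, and gave a median ratio of 1.77. It called 2072 of all genes lower, so 60.5% of all its calls were higher, against 76.1% with normexp and loess. Median centring called 9 genes higher and 0 lower, beside 7.28% and 3.57% of measured genes, and moved the median of all genes to -0.28, against -0.12 with the software and 0.06 with loess. The members' median under median centring was 0.72, so its distance from that of all genes was 1.003, against 0.69 with loess. All 18 genes called higher were above 0 under each of these settings. In the 12 genes whose blood pool was not well above background, the ratio ran from 0.30 (Kif4) to 1.75 (Ccnb1) with the offset, and from 1.63 (Ndc80) to 4.45 (Ccna2) with the software. Melk went from 0.70 to 3.55. Mki67, well above background in both pools, moved from 3.96 to 4.07.

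**Figure D4:**
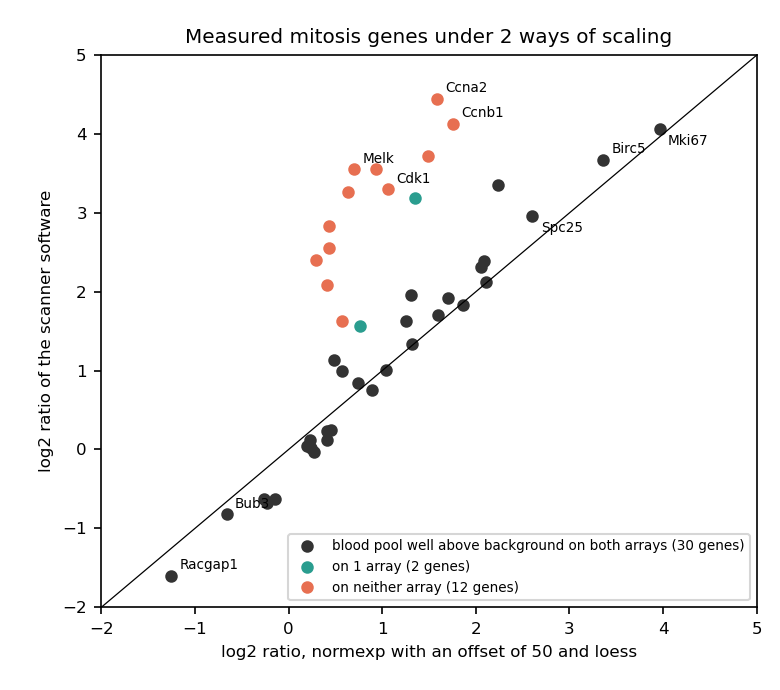
Log2 ratio of each of 44 measured mitosis genes with normexp, an offset of 50 and loess (x axis) against the scanner software's ratio (y axis), coloured by whether the blood pool was well above background, with the line of equal values. Genes detected in both pools lie near the line, Cenpe (2.24 against 3.35) being farthest from it, and the 12 genes with no such blood signal on either array lie above it, as Ccna2 (1.59 against 4.45) shows.

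The neighbouring parts of the cell cycle were described in the same way, from lists chosen by symbol. Over all measured genes, 14.2% were called higher and 4.47% lower with normexp and loess. The shares were 7.28% and 3.57% under median centring, and 20.3% and 13.3% with the software's ratios. Of 62 other mitosis genes, 12 were called higher (27.3% of the 44 measured) and 0 lower, with a median of 0.49 over those measured. Median centring called 4 higher (median 0.49), and the software's ratios 20 higher and 2 lower (median 1.06). The 12 included Stmn1, a microtubule destabiliser (3.53 ± 0.0022), Cdca8, the passenger protein borealin (2.003 ± 0.18), and Iqgap3 (at least 3.22-fold). Of 48 DNA replication and G1/S genes, 12 were called higher and 1 lower, with a median of 0.68. Median centring called 5 higher and 1 lower (median 0.33), and the software's ratios 16 higher and 2 lower (median 0.84). Uhrf1, which couples replication to DNA methylation (2.88 ± 0.052), the thymidine kinase Tk1 (2.05 ± 0.093) and the DNA ligase Lig1 (2.02 ± 0.051) were the highest, and the transcription factor E2f2 was lower (-2.85 ± 0.034). None of 17 genes of the anaphase-promoting complex and its regulators was called under any of these 3 scalings, with a median of 0.13 (-0.48 under median centring), Anapc5 at 0.12 and Anapc13 at -0.15. Of 12 genes of cohesin and its regulators, Cdca5, which encodes sororin (1.37 ± 0.18), was the gene called with normexp and loess, and the median was -0.41. Median centring called 0 of them, and the software's ratios 1 higher and 1 lower. Differences between lists were not tested.

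Markers of other cell types also differed between the pools. Their counts stand beside 14.2% of all measured genes called higher and 4.47% called lower. Of 14 fibroblast and smooth muscle markers, 13 were called higher, led by Dcn (7.01 ± 0.077), Lum (6.82 ± 0.14) and Col1a1 (6.79 ± 0.042). Their normalized intensity, summed over the list, was 131153 and 138833 in the colon pool and 3013 and 2816 in the blood pool on arrays 1 and 2. Of 21 epithelial markers, 14 were higher, among them Krt8 (4.01 ± 0.24), Lgals4 (3.60 ± 0.031) and Krt19 (at least 8.89-fold), and Ascl2 was lower (-1.24 ± 0.02). Their sum was 11879 and 10250 in the colon pool and 3074 and 2702 in the blood pool, while the stem cell genes Lgr5 and Olfm4 were not well above background in either. Of 14 B cell and plasma cell markers, 10 were higher, with Jchain at 5.18, Mzb1 at 3.65 and Pou2af1 at 2.85, sums of 58716 and 58961 against 24353 and 26552, and Pax5 not well above background in either pool. Of 15 T cell markers, 9 were higher, with Il7r at 4.10, Cd28 at 3.09 and Zap70 at 2.67, sums of 9836 and 8866 against 2469 and 1991, and Cd8a not well above background in either. These sums run over probes of unequal brightness and include the offset of each. Median centring called 12 fibroblast, 12 epithelial, 5 B cell and 7 T cell markers higher, beside 7.28% of all measured genes, and did not call Ascl2. The software's ratios called 14, 16, 11 and 10 of these lists higher, beside 20.3%. The part of these markers in the ratios of the mitosis genes was not tested.

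The same shares, 14.2% higher and 4.47% lower, hold beside the next lists. Of 12 endothelial markers, 4 were higher, among them Egfl7 (3.47), Plvap (2.74) and Cldn5 (at least 3.41-fold), and Flt1 was lower (-1.60). The other 7 were measured without a call, and the sums were 6642 and 6509.6 against 4127 and 3643. Of 10 erythroid markers, 6 were measured with a median of -0.61, 5 of them below 0 on both arrays, and Tfrc was called higher (1.36), a call lost under median centring and with the mean over probes. They had sums of 19033 and 20817 against 31735 and 29332, and Klf1 and Epb42 were not well above background in either pool. Of 14 neutrophil markers, 5 were lower, led by S100a8 (-3.63), S100a9 (-3.28) and Cxcr2 (-1.98). A further 8 were measured without a call, and the median of the 13 measured was -0.27, with 3 above 0 on both arrays. The neutrophil sums were 37304 and 33349.7 against 113033 and 91543, and Ngp was not well above background in either pool. Of 12 macrophage markers, 8 were higher, led by Mrc1 (5.78), C1qb (5.70) and C1qa (4.90), with sums of 538148 and 620187 against 136773 and 155281. Median centring called 3 endothelial and 6 macrophage markers higher and 5 neutrophil markers lower, beside 7.28% and 3.57% of all measured genes. With the software's ratios these counts were 8, 8 and 6, beside 20.3% and 13.3%. The mitosis genes themselves summed to 28499 and 26352 in the colon pool and 15433 and 15843 in the blood pool. That sum includes the offset of each probe and the 6 genes that were not measured. Its largest terms in the colon pool were Pttg1 (5146 and 4579), which was not called, and Mki67 (4636 and 4465).

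**Figure D5:**
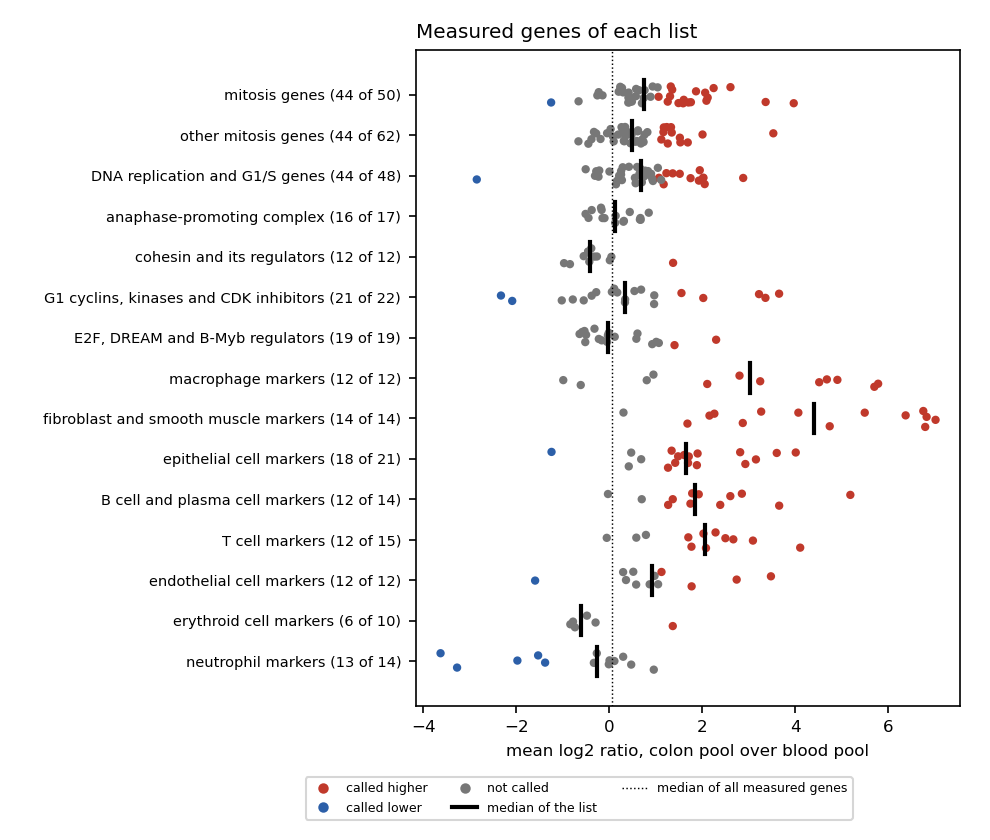
Mean log2 ratio, colon over blood, of the measured genes of each list (measured of all members in brackets), red for genes called higher and blue for lower, with a bar at each list's median and a dotted line at the median of all measured genes (0.06). The mitosis genes (median 0.75) and the DNA replication and G1/S genes (0.68) lie to the right of that line, and the fibroblast markers (4.40) farthest to the right.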

How the data were processed

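Total RNA of each pool was amplified and labelled from 25 ng, per the labels' protocols, and both arrays lay on 1 slide with 1 scan time, which leaves no batch to test. The deposited scanner files give linear intensity per spot and a log10 ratio of red over green, per the file headers, made with Agilent Feature Extraction 10.7.3.1 (the submitters' processing notes say 10.5.1.1). The series' deposited table of log10 ratios equals the scanner's after turning array 2, to within 4.81e-08. Intensities were corrected with normexp (offset 50), scaled within arrays by loess (limma 3.58.1, R 4.3.3), turned to log2 colon over blood and averaged per probe (39424 probes, of which 66 read the members). Aquantile scaling, which keeps the ratios, gave the intensities of each pool. Control spots had weight 0. The gene's brightest measured probe gave its value. A bound is the bright pool's mean log2 signal minus, on each array, the higher of the dim probe's own signal and the lowest passing signal of that channel. For the mitosis genes the dim probe's own signal set it. RefSeq accessions named 26053 probes, the files 8651, and 4720 had no name. Positions of probes come from the deposited files (mm9) and were not set against exons here.

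The members and lists were chosen with earlier results of these data known. All members are named. Of each other list, up to 3 called genes with the largest ratio per direction are named, or the 2 brightest where none was called, with defining markers that neither pool detected, of which 1 is not reported here. On simulated arrays of 43020 probes, a log2 change of 1.5 was called in 98 of 100 probes, a change of 3 in 100 of 100, and no change in 0. All changed probes were drawn from bright probes, so those shares hold for bright probes only, and recovery in dim genes was not tested. Motifs of proteins were not analysed here. The depth of arrays is set by signal over background, and 2 arrays of 1 replicate limit the precision.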

Additional observations from a re-analysis of the deposited data

How the results depend on the processing

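With 1 replicate, every figure here is a count or a value without a test, and each cause of a change was not tested. The count of mitosis genes called higher was 18 and became 9 under median centring, 28 for the software's ratios and with the deposited value table, and 7 at a log2 threshold of 2. The count called lower was 1 and became 0 with median centring, 2 at a threshold of 0.58 and 0 at a threshold of 2. The median ratio of 0.75 became 1.12 with an offset of 16 and 1.77 with the software's ratios and the deposited table. Over all genes, 2221 called higher became 1137 with median centring, 3501 at a threshold of 0.58 and 953 at 2, and 699 called lower became 2072 with the software's ratios and the deposited table, 1743 at 0.58 and 130 at 2. Using either array alone gave 18 to 20 mitosis genes higher, 1 lower and a median of 0.67 to 0.88, with 2394 to 2638 of all genes higher and 845 to 857 lower. Under median centring Ccnb2, Ccnf, Cenpa, Kif22, Top2a, Ncapd2, Ncaph, Cdc20 and Ube2c lost the call. Their means there ran from 0.90 (Ube2c) to 1.70 (Ncaph), and a gene with a mean above 1 lost the call where 1 array fell short. The mean over probes lost Ccnb1. No background correction, an offset of 16, the software's ratios and no filter on dim probes kept all 18. No result changed sign after a call. No paired analysis was possible because both arrays hold the same pools. The offset and the dim blood pool limit the ratios of dim genes, which are bounds on the mean of both arrays with normexp and loess only.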

Other observations

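Of 22 G1 cyclins, kinases and CDK inhibitors, 5 were higher by the size of a call in the colon pool and 2 were lower, beside 14.2% and 4.47% of all measured genes. Their median was 0.34, and -0.18 under median centring. The D-type cyclins ran in opposite directions, with Ccnd2 at 3.36 and Ccnd1 at 3.22, and Ccnd3 at -2.33. The stress gene Gadd45b was at 3.65, and the inhibitor Cdkn2d, which blocks the kinases of D-type cyclins, at -2.09. Of 19 E2F, DREAM and B-Myb regulators, 2 were called higher, Pkmyt1, a kinase that restrains Cdk1 (2.30), and Lin54, the subunit that contacts the CHR (1.4). Of all measured genes, 14.2% were called higher. The median of the list was -0.03. Median centring called 0 of them, and the software's ratios 3 higher and 2 lower.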
